A study of Mus musculus with 3 samples.

Results

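Connexins are membrane proteins that assemble as hexameric hemichannels; a hemichannel docks with one on a neighbouring cell to form a gap junction, through which ions and small metabolites pass. Pannexins form related large-pore channels that release ATP but rarely join cells. In bone marrow, stromal cells coupled through connexin 43 (Gja1) and connexin 45 (Gjc1) are known for supporting CXCL12 secretion and hematopoietic stem cells.

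The values described here are those of 8 genes of this family on 3 arrays: the connexins Gja1, Gjc1, Gja4, Gja5, Gjb2 and Gjb6 and the pannexins Panx1 and Panx3. Each gene was taken from the probe sets annotated to its symbol alone. All 8 were found, with 1 probe set each, among 19938 genes named this way. The rule itself uses no measured value, but the genes were proposed with earlier results of these data known.

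The study set 2 sorted stromal populations of mouse bone marrow (tibia, femur and pelvis) side by side at baseline. CXCL12-abundant reticular (CAR) cells came from CXCL12-GFP knock-in mice and were measured on 2 arrays, 1 per mouse. PDGFRa+ Sca+ CD45- lineage- cells, called PaS here, were combined from 3 Prx1-Cre Rosa26Ai9/+ Cxcl12gfp/+ mice and measured on 1 array. Both groups carry GFP at the Cxcl12 locus; the Prx1-Cre driver, which acts in limb mesenchyme, and the Ai9 reporter were present only in the PaS mice. Ages are not stated in the labels. Genotype and cell type differ together and cannot be told apart, and the PaS side has no replicate, so every error below comes from the CAR arrays and assumes that PaS cells vary like them.

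The labels were checked against the genes of the sorts. Cxcl12 was 9.63-fold and Prrx1 6.35-fold higher in CAR cells, and Pdgfra, the receptor that gates PaS cells, was 10.7-fold higher there too. Ptprc, which encodes the CD45 antigen gated out of that sort, was 9.28-fold higher on the PaS array (limma adjusted p 0.0114 to 0.0143 for these 4 genes). Pdgfra and Ptprc go against the label, so directions below are between CAR cells and the array labelled PaS. The marker sets were chosen with earlier results of these data known, so they are no independent check of the labels. Of them, 12 of 12 CAR stroma genes were higher in CAR cells, with summed intensities of 8286 and 9560 against 670.3. Cxcl12, the locus that carries GFP, is 1 of these 12. Of 9 measured Sca-1+ fibroblast progenitor genes 6 were higher on the array labelled PaS and 1, Pdgfra, in CAR cells (489.8 and 722.7 against 2002). Ly6a, the gene of Sca-1 itself, was not among the genes measured, so that gate could not be checked. Also on the array labelled PaS 9 of 10 leukocyte genes were higher (464.5 and 531.5 on the CAR arrays against 3129), and so were 8 of 10 neutrophil genes (2967 and 2675 against 15590) and 2 of 5 measured megakaryocyte and platelet genes (233.6 and 74.09 against 392.2). Of 4 measured erythroid genes 0 passed in either direction. Their part in the results below was not tested. In such samples fewer cells of a type and less RNA per cell cannot be told apart.

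The base sequences upstream of Gja1 and Gjb2 are shown because these genes had the highest and the lowest difference among the members. Each is the 250 bases before the RefSeq start on GRCm38.p6, 5′ to 3′ on the gene's strand: Gja1 at chr10:56377050-56377299 on the plus strand and Gjb2 at chr14:57104703-57104952 on the minus strand. Capitals mark matches, on either strand, to an AP-1 motif (TGANTCA), a GC box (GGGCGG) or a TATA box (TATAAA), none of which overlap here.
Gja1: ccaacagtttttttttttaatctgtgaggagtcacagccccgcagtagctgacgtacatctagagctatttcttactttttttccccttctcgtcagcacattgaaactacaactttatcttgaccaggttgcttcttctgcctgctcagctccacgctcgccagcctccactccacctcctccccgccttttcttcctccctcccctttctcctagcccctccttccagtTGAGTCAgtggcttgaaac
Gjb2: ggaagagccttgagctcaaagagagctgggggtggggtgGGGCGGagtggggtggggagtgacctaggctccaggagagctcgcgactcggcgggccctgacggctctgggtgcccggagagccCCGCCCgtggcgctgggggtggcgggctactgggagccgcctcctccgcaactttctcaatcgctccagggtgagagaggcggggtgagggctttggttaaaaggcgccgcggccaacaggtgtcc

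The Gja1 window held 1 AP-1 match, TGAGTCA, 19 to 13 bases before the start, and was 50% G and C. The Gjb2 window held 2 GC boxes and was 69.2% G and C. Over the 32851 promoter windows of this length, 6.75% held the AP-1 letters, 32.7% a GC box and 12.4% the TATA box. Upstream windows were found for 6 of the 8 genes; Gja4 and Gja5 each held 1 GC box, and the windows of Gjb6 and Panx1 held no match to the 3 motifs. A match is a description of the letters.

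Gja1, which encodes connexin 43, the main gap junction protein of osteoblasts and marrow stroma, was the member that rose in CAR cells. Its intensity was 796.6 and 956.2 on the CAR arrays and 95.17 on the array labelled PaS. Both CAR values were well above the PaS value and close to each other, and on every array Gja1 lay above the 95th percentile of all genes (log2 6.69, 6.93 and 6.16). The log2 level was 9.77 ± 0.19 (SD, n = 2) in CAR cells and 6.57 for PaS. CAR cells were therefore 9.17-fold higher, or 3.20 ± 0.30 log2 units (SE), with a limma adjusted p of 0.0116. The gap between the CAR arrays was 0.26 log2 units, and 51.0% of all genes had a larger one. The 95th percentile itself was higher on the CAR arrays. With quantile normalization, which gives the arrays equal distributions, the difference of Gja1 was 2.62 log2 units. The call was lost when 16 was added to every intensity before log2 was taken (adjusted p = 0.0539), a setting under which no gene of 19938 passed, although 5785 had an unadjusted p under 0.05.

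The fold of Gja1 stood beside that of Cxcl12 at 9.63 and within the range of the 12 CAR stroma markers, whose log2 differences ran from 2.63 (Ebf1) to 5.70 (Lepr). The genes nearest to Gja1 in pattern over the 3 arrays, by Euclidean distance between log2 values centred on each gene's mean, were Tmem30a (distance 0.022), Colec12 (0.045) and Gpm6b (0.061). These are a subunit of phospholipid flippases, a scavenger receptor and a membrane glycoprotein. They were picked from 9454 candidate genes whose mean over the arrays reached that of the median gene. On the array labelled PaS, Tmem30a (log2 3.42) and Gpm6b (3.56) lay below the median of 3.77, so they entered through their CAR values. With 3 arrays such nearness says little more than a like difference: 3.20, 3.15 and 3.24 log2 units.

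**Figure D1:**
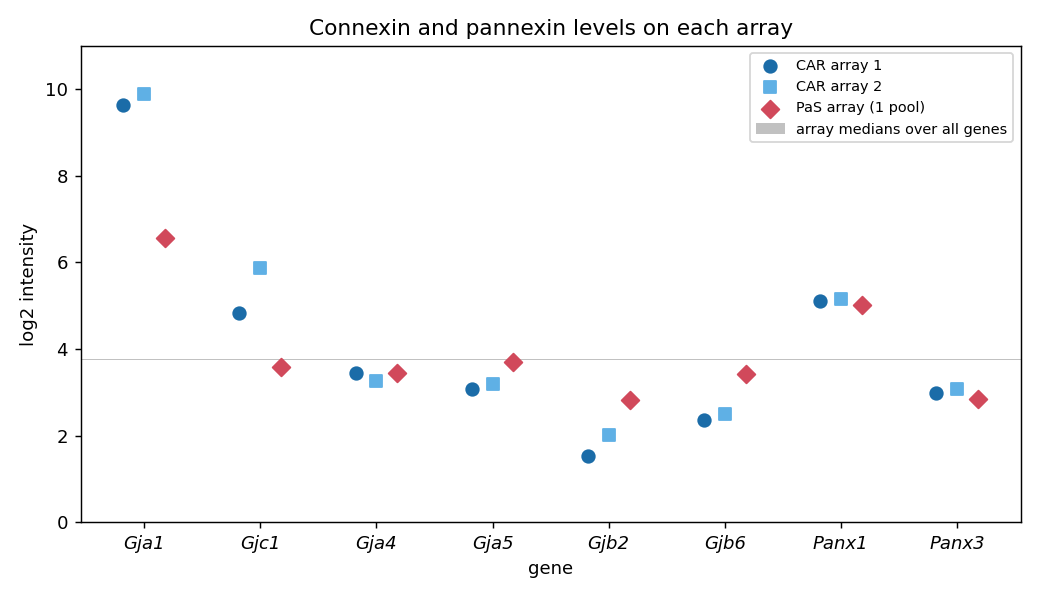
Log2 intensity (vertical axis) of the 8 genes (horizontal axis) on CAR array 1, CAR array 2 and the array labelled PaS, 1 point per array; the grey line spans the 3 array medians over all genes, 3.74 to 3.77. Gja1 stands at 9.64, 9.90 and 6.57, and both CAR points of Gjc1 lie above its PaS point; levels of different genes come from different probe sets and are not comparable.

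Gjc1 encodes connexin 45, which forms gap junctions of low conductance in heart, vessel wall and stroma. Its intensity was 28.62 and 58.08 on the CAR arrays and 11.94 on the array labelled PaS. Both CAR arrays were at least 2-fold above the PaS array, but they were unequal: their gap of 1.02 log2 units was exceeded by 3.33% of genes. On the log2 scale the level was 5.35 ± 0.72 (SD, n = 2) against 3.58, a difference of 1.77 ± 0.48 (SE), 3.41-fold, which did not pass over all genes (limma adjusted p = 0.0655). The difference passed under 4 of 8 tested alternatives: each array centred on its median (adjusted p = 0.0251), quantile normalization (0.0128), a fit restricted to genes whose mean reached the median (0.0317) and a robust prior (0.0387). Gjc1 entered the restricted fit through its CAR values, so that fit is no separate support. Its calls were 2062 higher and 510 lower over all genes kept. The difference of Gjc1 did not pass under the other 4, and with 16 added to every intensity it was 1.04 (adjusted p = 0.22) and no longer at least 2-fold in both CAR arrays. Mean and single probe sets are among these 4, and they cannot change the difference of a gene with 1 probe set. With CAR array 2 alone the difference was 2.28, and with CAR array 1 alone 1.26. The PaS value of Gjc1 lay below the median of all genes on that array, 3.77, so the fold is uncertain in size.

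Gja4 and Gja5 encode connexin 37 and connexin 40, the gap junction proteins of arterial endothelium. Gja4 had intensities of 10.82 and 9.553 on the CAR arrays and 10.96 on the array labelled PaS. The 3 values nearly coincided, with a log2 difference of −0.11 (95% interval −0.84 to 0.62; limma adjusted p = 0.815), and the sign turned after quantile normalization (0.094). Gja5 had intensities of 8.431 and 9.21 against 12.96. Both CAR values were lower, by 0.56 log2 units (interval −1.27 to 0.16; limma adjusted p = 0.226), which did not pass. Every value of both genes lay below the array medians, where without detection calls a level cannot be told from background. Endothelial markers were measured beside them: 4 of 13 were higher on the array labelled PaS (Cdh5, Emcn, Stab2 and Robo4) and 0 in CAR cells, with summed intensities of 180.2 and 159.0 against 389.6 and none at 0. Of smooth muscle and pericyte markers 1 of 11, Notch3, was higher in CAR cells (260.2 and 267.1 against 187.6).

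Gjb2 and Gjb6 encode connexin 26 and connexin 30, which are known from epithelia and from the supporting cells of the inner ear. Gjb2 had intensities of 2.904 and 4.026 on the CAR arrays and 7.131 on the array labelled PaS. Gjb6 had intensities of 5.162 and 5.658 against 10.65. For both genes the CAR values were the lower ones, by 1.06 ± 0.33 and 0.98 ± 0.28 log2 units (SE), and neither difference passed (limma adjusted p = 0.0885 and 0.0756; unadjusted 0.0225 and 0.0169). All of these values lay below the array medians, and those of Gjb2 were among the lowest 15% of genes on each array. The low end of the scale itself was higher on the array labelled PaS: the 5th percentile over genes was 1.87 and 1.69 on the CAR arrays and 2.40 there. With quantile normalization, which equalises the low ends, the differences were −0.53 and −0.67, and with 16 added to every intensity they were −0.25 and −0.32. Of 8 epithelial markers 1, Epcam, was higher on the array labelled PaS and 0 in CAR cells (summed intensities 104.3 and 92.05 against 101.6). That count rests on 1 gene, and 6.42% of all genes were lower in CAR cells.

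Panx1, the widely expressed pannexin that releases ATP, had intensities of 34.55 and 35.61 on the CAR arrays and 32.32 on the array labelled PaS. The values lay above the median of all genes on each array and close together, with a log2 difference of 0.12 (interval −0.59 to 0.83; limma adjusted p = 0.793). After quantile normalization the difference was −0.40, so its sign depends on the scaling. Panx3, a pannexin of osteoblasts and chondrocytes, had intensities of 7.973 and 8.428 against 7.167, all below the array medians. Its difference of 0.19 (interval −0.52 to 0.90; limma adjusted p = 0.661) did not pass either. Of 8 measured osteoblast markers 5 were higher in CAR cells (2491 and 3586 against 296.1), and of 10 chondrocyte markers 3 were lower (176.4 and 209.8 against 1801, of which the joint-surface gene Prg4 made up 18.03 and 48.99 against 1411), while Panx3 lay below the median on all arrays.

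**Figure D2:**
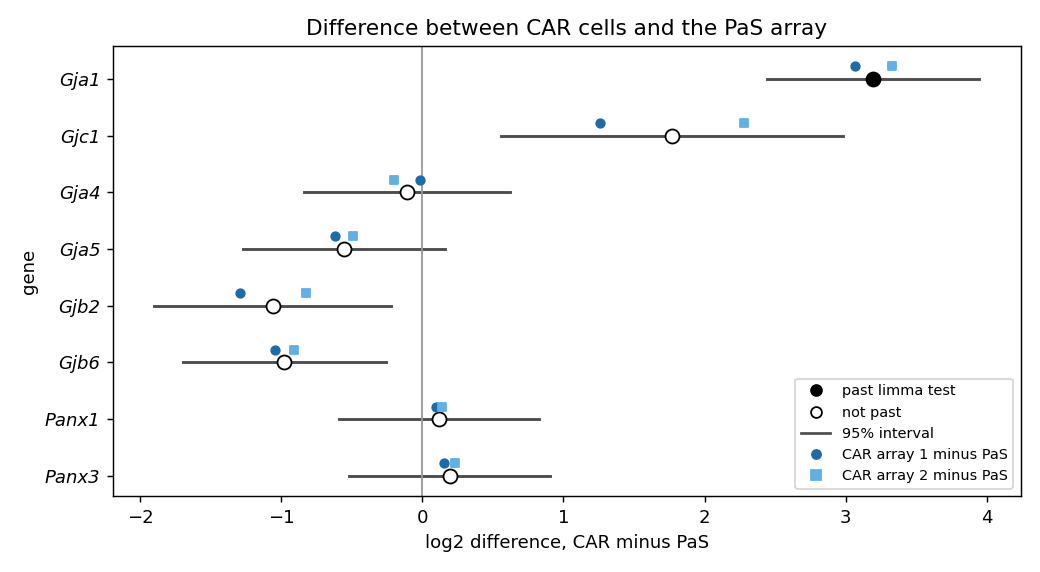
Log2 difference, CAR minus the array labelled PaS (horizontal axis), for the 8 genes, with limma's 95% interval as a line, a filled circle where the adjusted p was under 0.05, and the difference of each CAR array as a small blue point. The interval of Gja1 runs from 2.45 to 3.95, Gjc1 shows the widest gap between CAR arrays, and the intervals of Gja4, Gja5, Panx1 and Panx3 span 0.

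Counted together, 1 of the 8 genes was higher in CAR cells and 0 lower by limma's test (8.56% and 6.42% of all genes), with 2 higher and 2 lower at an unadjusted p under 0.05 (17.1% and 18% of all genes). By size alone 2 of 8, Gja1 and Gjc1, were at least 2-fold higher in both CAR arrays and 0 were at least 2-fold lower (10.9% and 8.92% of all genes). Both CAR arrays lay above the PaS value for 4 members and below it for 4 (37.4% and 46.8% of all genes). The median difference of the members was 0.0046 log2 units, beside −0.096 over all genes. These counts are near the shares over all genes and are no result about the members as a group. The 5 genes Gja4, Gja5, Gjb2, Gjb6 and Panx3 lay below the median on every array, Gja1 and Panx1 above it on every array, and Gjc1 above it on the CAR arrays alone.

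Most of the rest of the family was dim as well. Of 15 other connexins and pannexins 11 were measured; 0 rose and 1 fell in CAR cells (15% of all genes passed in either direction), and 8 lay below the median on every array. The gene that fell was Gjd4, a connexin studied in muscle precursor cells, at log2 levels of 2.35 and 2.16 against 3.61 (difference −1.36 ± 0.29, SE; limma adjusted p = 0.0410). All 3 of its values lay below the array medians. Gjd4 still passed after quantile normalization (difference −1.10, limma adjusted p = 0.0193), but not with 16 added to every intensity (−0.44, adjusted p = 0.119). The family median was −0.21. Gja3, Gja6, Gja10, Gjb1, Gjb5, Gjc3, Gjd2, Gjd3, Gje1 and Panx2 did not pass, with differences from −1.03 (Gjc3) to 0.44 (Gja6). Of the 19 family genes measured, Gja1 was the only one that passed in the direction of CAR cells.

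Genes of proteins that bind or regulate connexins were counted next. Of 16 measured partners 3 rose and 2 fell (8.56% and 6.42% of all genes), with a median of 0.78 beside −0.096 over all genes. None of the 16 lay below the median on every array. Genes whose mean reached the median had a median difference of 0.37, so brighter genes leaned toward CAR cells as a whole. Cdh2, N-cadherin, whose adherens junctions accompany connexin 43 junctions, was 21.3-fold higher in CAR cells (8.10 and 8.54 against 3.90 on the log2 scale; limma adjusted p = 0.00914). Nedd4, a ubiquitin ligase that acts on connexin 43, was 8.06-fold higher (9.02 and 9.31 against 6.15; adjusted p = 0.0125 in limma's test). Ubqln4, which binds connexin 43 on its way to degradation, was 2.56-fold higher (adjusted p = 0.0402 in the same test). Cav1, the caveolin that associates with connexins, fell by 1.84 log2 units (2.69 and 2.78 against 4.58), and Ccn3, a matricellular protein that binds connexin 43, fell by 1.64. Cav1 is abundant in endothelium, of whose 13 markers 4 were higher on the array labelled PaS; their part was not tested. Tjp1, the scaffold ZO-1 that binds the connexin 43 tail, stood at 6.14 and 6.10 against 5.36 and did not pass (limma adjusted p = 0.124).

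Other channels and the ATP axis on which pannexins act were counted in the same fit, in which 8.56% of all genes were higher and 6.42% lower. Of 12 other large-pore channel genes 2 rose and 0 fell: Calhm5, a calcium homeostasis modulator, was 4.10-fold higher (4.84 and 5.83 against 3.30, so also unequal between CAR arrays), and Lrrc8a, the essential subunit of volume-regulated anion channels, was 2.97-fold higher. Of 15 measured purinergic receptors 3 rose and 0 fell. P2ry14, the receptor for UDP-glucose, was 5.49-fold higher (6.12 and 6.45 against 3.83), the ATP-gated channel P2rx4 4.85-fold (7.27 and 6.96 against 4.84) and the ADP receptor P2ry1 2.64-fold. P2rx7, the ATP-gated channel often studied with Panx1, stood at 3.99 and 3.73 against 4.19 and did not pass. Of 8 measured genes of ecto-nucleotidases and of adenosine deaminase (Ada), 2 rose and 0 fell. Enpp3 was 5.40-fold higher and Alpl, tissue-nonspecific alkaline phosphatase and also an osteoblast marker, 3.26-fold. Ada itself fell short of the test (4.69 and 5.29 against 6.47; limma adjusted p = 0.0527). The medians of these lists were 0.28, −0.32 and −0.17, beside −0.096 over all genes.

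**Figure D3:**
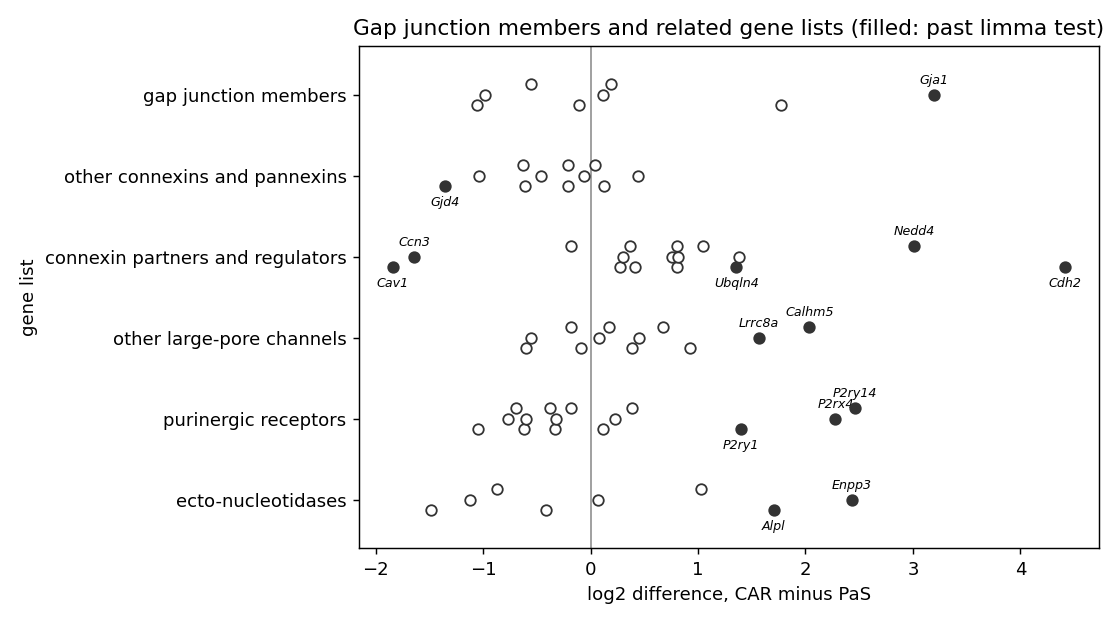
Log2 difference, CAR minus the array labelled PaS (horizontal axis), of every measured gene of the 8 members and of 5 related lists (rows), 1 circle per gene and filled where limma's adjusted p was under 0.05. Gja1 at 3.20, Nedd4 at 3.01 and Cdh2 at 4.41 lie farthest toward CAR cells, and Cav1 at −1.84 farthest the other way among genes that passed.

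**Figure D4:**
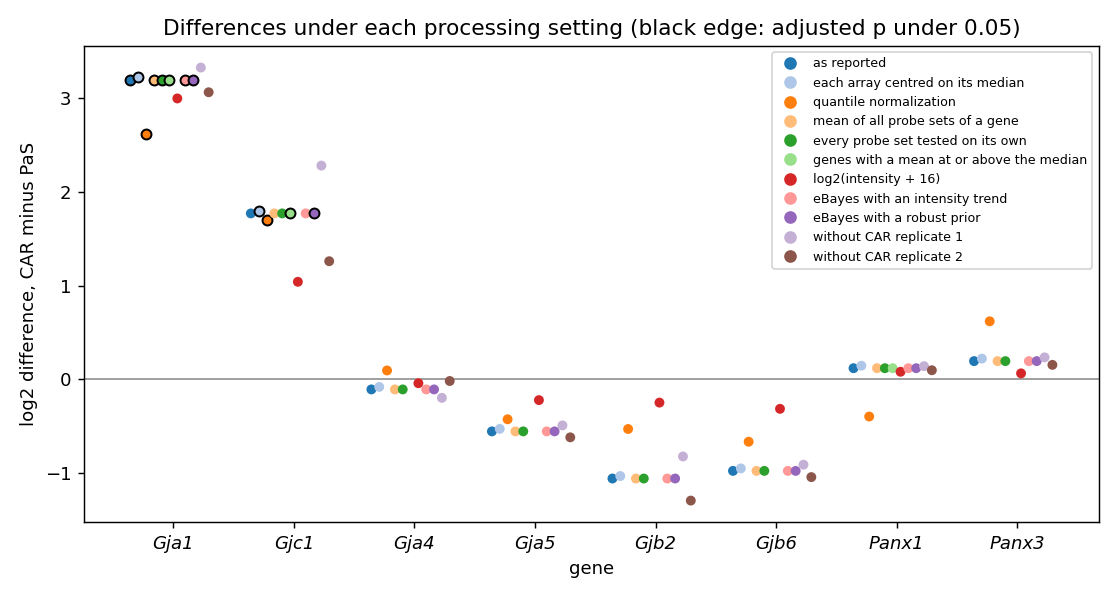
Log2 difference, CAR minus the array labelled PaS (vertical axis), of the 8 genes (horizontal axis) as reported and under up to 10 other settings (colours), with a black edge where the adjusted p was under 0.05. Gja1 stays between 2.62 and 3.33 and Gjc1 between 1.04 and 2.28, while Gja4 and Panx1 cross 0 after quantile normalization. The probe set, prior and filter settings leave each difference unchanged by construction.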

How the data were processed

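Sorted cells yielded total RNA, from which biotin-labelled cDNA was prepared by NuGen amplification per the labels' protocols and hybridised to 3 single-colour arrays. The table deposited by the authors holds an intensity on a linear scale for every probe set. Per the submitters' processing notes it was made with Affymetrix Expression Console and RMA, with versions and genome build not given in the sources used here. Log2 was taken with no pseudocount. The table has 35556 probe sets: 21789 have 1 symbol in the platform annotation, 1621 have several and 12146 have none, and 21698 identifiers matched the current gene table. For a gene with several probe sets (999 genes, none of them a member) the brightest was used, giving 19938 genes. CAR arrays were compared with the array labelled PaS by lmFit and eBayes of limma 3.58.1 (R 4.3.3), without covariates, two-sided, p-values being adjusted over all genes by Benjamini-Hochberg (threshold 0.05); 1 residual degree of freedom was joined by 4.20 from the prior (prior SD 0.25 log2 units). The fit was tested on simulated data with the same spread on all arrays, so that test cannot check whether PaS cells vary like CAR cells. The number of arrays limits the precision.

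The members and gene lists were chosen with earlier results of these data known. Named are all members, up to 4 genes past the test in each related list (2 with the largest difference where none passed), Cxcl12, Pdgfra, Prrx1 and Ptprc, and the 3 genes nearest to Gja1. The other connexins that did not pass, Tjp1, P2rx7, Ada, Ebf1, Lepr, the fifth partner gene and the marker genes were named after their values were seen. Of 194 list entries 170 were measured. Alternatives were array centring, quantile normalization, mean or single probe sets, a filter at the median, an added 16, trended or robust priors, and each CAR array left out.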

Additional observations from a re-analysis of the deposited data

How the results depend on the processing

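Of the 8 members, 6 kept the direction of their difference under every setting that gave a value. Gja4 and Panx1 turned after quantile normalization, to 0.094 and −0.40. Many of the settings could not turn a sign. Each member has 1 probe set, so mean or single probe sets left its difference unchanged. The priors and the filter also left it unchanged, and centring shifted all genes by the same amount. Members called higher numbered 2 instead of 1 with centring, quantile normalization, genes at or above the median level (3 members left) and a robust prior, in each case Gja1 and Gjc1. Gjc1 reached the median level through its CAR values, so the call in that setting is no separate support. With 16 added to every intensity the members called were 0 (2 at an unadjusted p under 0.05), the other connexins called were 0 instead of 1 (2 unadjusted), and 1 member instead of 2 was at least 2-fold apart. The other connexins called were also 0 (0 unadjusted) among the 3 left at or above the median level. With 1 CAR array left out, members at least 2-fold apart numbered 2 to 4; without CAR array 2 they were Gja1, Gjc1, Gjb2 and Gjb6. Over all genes the higher and lower calls were 1706 and 1281 as reported, 2461 and 1913 after centring, 2636 and 2831 after quantile normalization, 2062 and 510 at or above the median level, and 0 with 16 added (lowest adjusted p 0.0539). The cause of these changes was not tested. No paired analysis was possible because the groups came from different mice, and the PaS cells were a pool. Signals near background limit what can be said of the 5 dim members.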

Other observations

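The connexin genes Gja3, Gjb2 and Gjb6 follow one another on mouse chromosome 14, by the order of protein-coding genes in the RefSeq annotation of GRCm38.p6. Their log2 differences, CAR minus the array labelled PaS, were −0.21, −1.06 and −0.98. Of these 3 genes 0 passed the test of limma, with 2 (Gjb2 and Gjb6) at an unadjusted p under 0.05 and lower in CAR cells (18% of all genes). Gja1 and Gjc1 have no connexin gene next to them.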
